A study of Mus with 14 samples.

Results

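The cells described here are bone marrow progenitors whose transcriptomes held both Flt3 and Dntt. A cell entered the set when its raw unique molecular identifiers (UMIs, counts of captured transcript molecules) included at least 1 of Flt3 and at least 1 of Dntt and none of Cd79a, Vpreb1, Vpreb3, Siglech or F13a1. The last 5 genes mark B-lineage cells (Cd79a, Vpreb1 and Vpreb3), plasmacytoid dendritic cells (Siglech) and monocyte-lineage cells (F13a1). In all, 687 of 70038 cells that passed the quality limits met the rule, or 0.981% (those limits were 1000 UMIs and 500 genes as minima, and mitochondrial UMIs below 10%). These 687 cells are called Flt3 Dntt cells below. Since the 7 genes chose the cells, their levels are given as a description only.

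Flt3 encodes a receptor tyrosine kinase whose ligand sustains early multipotent and lymphoid progenitors, and Dntt encodes terminal deoxynucleotidyl transferase, which adds nucleotides at V(D)J junctions. Progenitors that switch on Flt3 and then low levels of lymphoid genes before losing myeloid potential are known as lymphoid-primed multipotent progenitors. Il7r, the interleukin 7 receptor chain, is gained later, when common lymphoid progenitors form, and Satb1 (a chromatin organiser) and Notch1 (the receptor that drives T-lineage entry) are both tied to the lymphoid path.

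Each library came from the bone marrow of 1 secondary transplant recipient, sorted for lineage-negative, Kit-positive cells of donor (CD45.2+) origin. CD45.2+ donor marrow had first been mixed with CD45.1+ competitor marrow in aged, irradiated CD45.1+ hosts, which received poly(I:C) to switch on Mx1-Cre, an interferon-inducible recombinase. Their marrow then went into a further set of aged, irradiated hosts, which were harvested after 20 weeks. The genotypes were MxCre (3 mice), Dnmt3a (4 mice), Dnmt3a;Tnfr1KO (3 mice) and Dnmt3a;Tnfr2KO (4 mice). The last pair are called the Tnfr1KO and Tnfr2KO groups below, and both carry the Dnmt3a label too. The labels do not give the Dnmt3a allele, and they do not tie recipients to primary hosts. Mice of a group may therefore share a donor, so the spread between them, and p-values drawn from it, may be too small. Tnfr1 and Tnfr2 are the receptors for tumour necrosis factor, encoded by Tnfrsf1a and Tnfrsf1b.

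The 14 libraries held 3042 to 9724 barcodes and 62416022 to 162869740 UMIs each, and 1955 to 7745 quality cells with a median of 11275 to 39561 UMIs. Dnmt3a replicate 1 stood apart: 26.9% of its barcodes passed the limits, the lowest share of the 14. Pairs of libraries shared 1 to 17 barcodes, at most 0.358% of the smaller library. Free RNA was gauged in erythroid cells (Klf1 and Car1 at 2 UMIs or more, 73 to 884 per mouse), which should lack Flt3 and Dntt. Without thinning, 0% to 4.55% of them held a Dntt UMI and 0% to 7.63% a Flt3 UMI, at the highest in Dnmt3a replicates 1 and 3. The B-lineage genes that the rule leaves out were found there too, most in Dnmt3a replicate 4. Of its erythroid cells 18.8% held Vpreb3, 12.9% Cd79a and 10.9% Vpreb1. F13a1 was highest in Dnmt3a replicates 3 and 1, at 18.6% and 13.6% of erythroid cells, with 3.96% in replicate 4. It was present in 55 of the 134 cells with Flt3 and Dntt in Dnmt3a replicate 1. In Dnmt3a replicate 4, 77.4% of cells with Flt3 and Dntt were left out (53 cells, of which 12 remained). The share of Flt3 Dntt cells there after thinning was 0.104%, or 0.286% with the 5 left-out genes not used. The part of free RNA in these losses was not tested.

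Of 10676 cells with Flt3 and 3646 with Dntt, 1078 held both. F13a1 removed 295 of these, Vpreb1 120, Vpreb3 52, Cd79a 46 and Siglech 5, with some cells removed by several genes. The 14 mice gave 19, 13 and 28 Flt3 Dntt cells in the MxCre mice, 71, 30, 18 and 12 in Dnmt3a, 104, 83 and 78 in the Tnfr1KO group, and 26, 52, 101 and 52 in the Tnfr2KO group. Their median depth ran from 13072.5 to 33058 UMIs per mouse, and 17 of the 687 were among the cells marked as doublets at a preset rate. A member at the threshold held 1 UMI of Dntt (295 cells), and 119 held 1 UMI of each gene. Cells just outside it, with Flt3 and no Dntt UMI and the other 5 genes at 0, numbered 5037.

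The given markers were checked first, in cells thinned at random to 5000 UMIs so that depth does not set detection (681 members were deep enough). Percentages pool the cells of all 14 mice, which give unlike parts of each set. Before thinning, MxCre replicate 1 gave 19 Flt3 Dntt cells and 456 Flt3-positive Dntt-negative cells, and Tnfr1KO replicate 1 gave 104 and 297. Satb1 (ENSMUSG00000023927, chromosome 17, 51736187 to 51833290) was found in 41.3% of Flt3 Dntt cells, 15.2% of Flt3-positive Dntt-negative cells, 7.50% of Hlf-positive cells and 1.26% of erythroid cells. The Hlf-positive cells are 14512 cells with Hlf and no Flt3 or Dntt UMI. They were chosen on 1 stem cell gene, and other lineages were not left out. Stem cell genes summed to a median over mice of 1409 UMIs per 1000000 (CPM) in them. The sum was 1421 CPM in Flt3 Dntt cells, 1574 in Flt3-positive Dntt-negative cells and 967 in all other cells. Myeloid priming genes summed to 17903 CPM in Hlf-positive cells and 5223 in Flt3 Dntt cells. Notch1 (chromosome 2, 26457902 to 26503822) was found in 19.5%, 8.02%, 5.67% and 0.873% of the 4 sets, in the order given for Satb1. Il7r (chromosome 15, 9506159 to 9529941) was nearly absent: 9 of 681 Flt3 Dntt cells held a UMI, or 1.32%, against 80.8% of pro-B cells (cells with Dntt, Cd79a and Vpreb1). Of the 2115 pro-B cells, 1930 came from Dnmt3a replicate 4, so pro-B percentages describe mainly that mouse. Without thinning, Satb1 was found in 77.7% of Flt3 Dntt cells, Notch1 in 49.1%, Il7r in 2.91% and Ighm in 62.9%. Of the 5 markers, Flt3 and Dntt were imposed by the rule, Satb1 and Notch1 were present, and Il7r goes against the label. Coordinates are those of RefSeq on GRCm38.p6, the build in the submitters' processing notes.

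**Figure D1:**
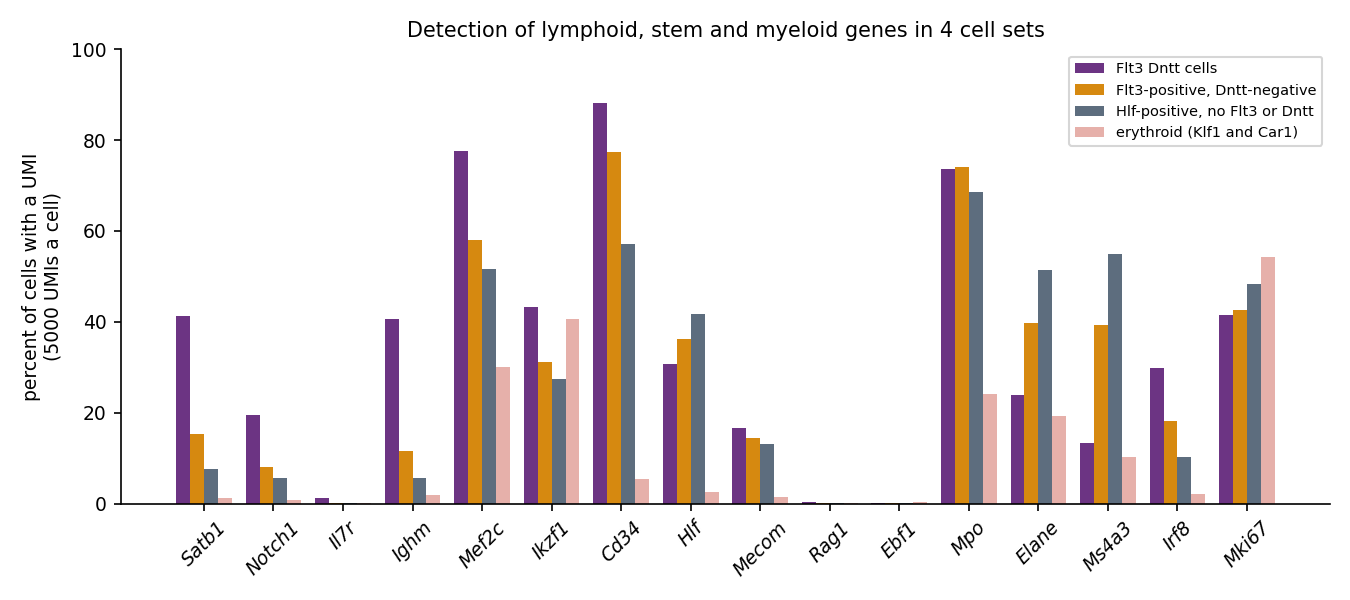
Bars give the percent of cells with at least 1 UMI of each of 16 genes after thinning every cell to 5000 UMIs, in Flt3 Dntt cells, Flt3-positive Dntt-negative cells, Hlf-positive cells and erythroid cells. Cells of all mice were pooled. Satb1 reached 41.3% and Ighm 40.5% of Flt3 Dntt cells, while Il7r stood at 1.32%, Rag1 at 0.441% and Ebf1 at 0.147%.

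Early lymphoid genes were found in many of these cells, and several genes of B- and T-lineage commitment were at or near 0. Ighm, whose unrearranged locus is transcribed early in lymphoid priming, was found in 40.5% of Flt3 Dntt cells, against 11.6% of Flt3-positive Dntt-negative cells and 94.6% of pro-B cells. Mef2c, a transcription factor of lymphoid priming, was found in 77.7%, 58.1% and 75.9% of the same sets. Ikzf1, which encodes Ikaros, was found in 43.2% of Flt3 Dntt cells, 31.0% of Flt3-positive Dntt-negative cells and 40.7% of erythroid cells. In contrast, Ebf1, the B-lineage specification factor, was found in 1 of 681 cells (0.147%, against 98.3% of pro-B cells). The recombinase genes Rag1 and Rag2 were found in 3 and 6 cells. Pax5, Lef1, Bcl11b and Cd3e gave no UMI in 681 cells at this depth, which allows up to 0.441% of cells with a UMI and does not limit cells that express them at low levels. Without thinning, Pax5 was found in 0.291% of Flt3 Dntt cells and the other 3 in none. The rule removed cells with Cd79a, Vpreb1 or Vpreb3, and the pro-B cells were chosen for Cd79a and Vpreb1. The low Ebf1, Pax5, Rag1 and Rag2 values, and the contrast with pro-B cells, may therefore be set by the choice of cells. Other B-lineage genes were present: Cd79b, a B cell receptor chain, was found in 15.6% of thinned Flt3 Dntt cells (14.9% of Flt3-positive Dntt-negative cells, 3.44% of erythroid cells) and Cd72, a B cell surface protein, in 19.1% (12.8% and 1.41%). The whole B-lineage list, which includes Ighm, had a median of 2 UMIs per cell, with 13.1% of cells at 0. Ccr9, a homing receptor of thymus-seeding cells, was found in 0.147% of thinned cells.

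Stem and myeloid transcripts were also found in Flt3 Dntt cells. Cd34 was found in 88.3% of Flt3 Dntt cells, Kit in 44.8%, Hlf in 30.7% and Mecom in 16.6%, the last pair being transcription factors of stem cells. Mpo, which encodes myeloperoxidase, was found in 73.6%, close to the 74.1% of Flt3-positive Dntt-negative cells, and in 24.1% of erythroid cells. Elane (neutrophil elastase) and Ms4a3, a gene of granulocyte and monocyte progenitors, were found in 23.9% and 13.2% of Flt3 Dntt cells, against 39.7% and 39.2% of Flt3-positive Dntt-negative cells. The erythroid share was 19.2% for Elane and 10.3% for Ms4a3, near the share in Flt3 Dntt cells. Irf8, a factor of dendritic and monocyte fate, was found in 29.8% of Flt3 Dntt cells against 2.04% of erythroid cells.

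A Flt3 Dntt cell thinned to 5000 UMIs held a median of 12 UMIs (quartiles 9 and 16) of the lymphoid transcription factors (24 genes), and no cell was without one. It held a median of 18 UMIs (quartiles 12 and 26) of the myeloid priming genes (21 genes), with a maximum of 231 in 1 cell. Neither list is confined to these cells: the lymphoid factors summed to a median over mice of 2506 CPM in Flt3 Dntt cells and 1674 CPM in all other cells, and the myeloid genes to 5223 and 21932 CPM. Erythroid cells also held myeloid RNA: over the 14 mice Mpo averaged 436 CPM in them and 879 CPM in Flt3 Dntt cells, Prtn3 474 and 1014 CPM, and Elane 447 and 243 CPM. The part of free RNA in the myeloid counts was not tested. Stem cell genes had a median of 7 UMIs and S phase genes of 13. Genes of Notch signalling and T-lineage entry had a median of 1, with 48.2% of cells at 0. Genes of T, NK and innate lymphoid cells were at 0 in 93.0% of cells and basophil and mast genes in 75.3%.

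Levels summed per mouse gave the same picture. Values are UMIs of a gene per 1000000 UMIs of the Flt3 Dntt cells of 1 mouse (CPM), and ratios carry 10 CPM added on both sides. Because the cells were chosen on their own counts, these contrasts have no test. Against all other quality cells, and leaving out the rule genes, the largest mean log2 ratios were those of Egfl7 (1.84), Satb1 (1.81, 100.4 against 20.7 CPM), Wfdc17 (1.79), Adgrl4 (1.68) and Gpr171 (1.51). All 5 were higher in 14 of 14 mice. Il12a, a subunit of interleukin 12, followed at 1.41, and Ifi203 and Basp1 at 1.39 and 1.36. Hlf (99.7 against 32.5 CPM) and Cd34 (1.33, 433 against 168 CPM) came next, with Dipk1b, Il1r1, Gcnt2 and Lsp1 between 1.29 and 1.33. The survival gene Bcl2 stood at 1.22, with 173 against 68.0 CPM.

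The closest neighbours were the Flt3-positive Dntt-negative cells. Relative to them, Flt3 Dntt cells were higher in Ighm (mean log2 ratio 1.42, 120.4 against 44.3 CPM, 12 of 14 mice), Il12a (1.13), Satb1 (1.12, 14 of 14 mice), Mef2c (0.78) and Notch1 (0.72, 13 of 14 mice). They were lower in Cd74 (-4.17, 14.1 against 491 CPM), H2-Aa (-2.99) and H2-Eb1 (-2.74), which serve antigen presentation. Here the neighbours were the high set. Their summed class II genes had a median over mice of 998 CPM, against 277 CPM in Flt3 Dntt cells. Hlf-positive cells had 198 CPM and all other cells 297 CPM. Flt3 Dntt cells were also lower than the neighbours in Elane (-2.48, 243 against 1041 CPM), Ms4a3 (-1.99) and Mpo (-1.16, 879 against 1904 CPM). At the threshold itself, members with exactly 1 Dntt UMI held Satb1 at 86.7 CPM, Notch1 at 27.7 CPM and Ighm at 67.1 CPM over 12 mice. Cells just outside held 39.5, 17.4 and 44.3 CPM over 14 mice, so of these 3 genes Satb1 had the steepest step.

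The mice differed widely in how much of each gene these cells held. Satb1 stood at 56.9, 60.0 and 115 CPM in MxCre, 193, 140.2, 91.0 and 45.6 CPM in Dnmt3a, 114, 117 and 116 CPM in the Tnfr1KO group and 79.6, 80.4, 97.6 and 100.5 CPM in the Tnfr2KO group. The Dnmt3a mice held both the highest and the lowest value, and the Tnfr1KO mice lay close together. Ighm ranged from 35.5 CPM (Dnmt3a replicate 4) to 208 CPM (Tnfr1KO replicate 3). Il7r was at 0 CPM in 6 mice and at most 9.20 CPM, in Tnfr1KO replicate 1. Mpo was lowest in Dnmt3a replicate 1, at 299 CPM, and reached 1372 CPM in Tnfr2KO replicate 1, while Cd34 kept between 358 and 498 CPM.

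**Figure D2:**
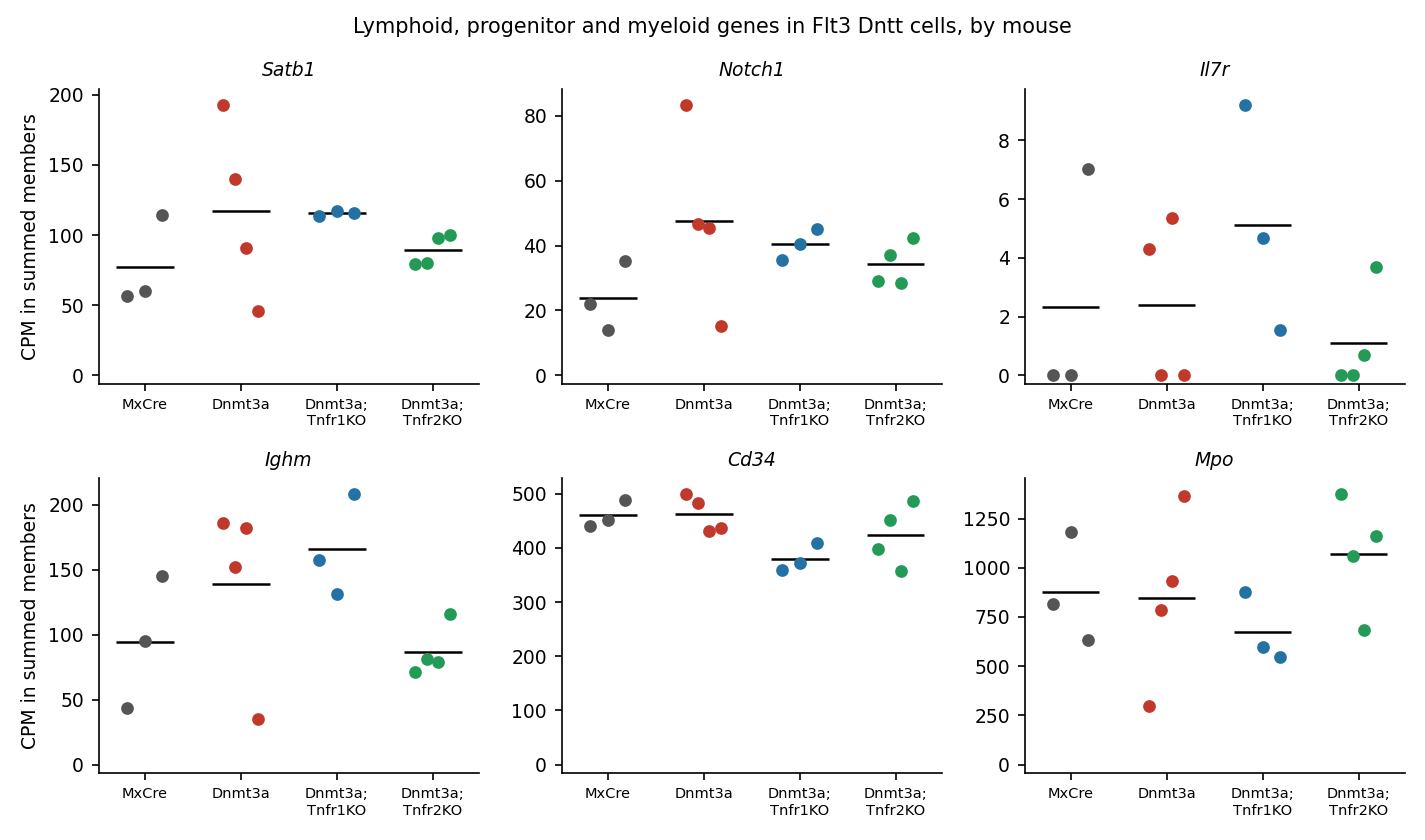
Each panel shows 1 gene (Satb1, Notch1, Il7r, Ighm, Cd34 and Mpo), with the level in Flt3 Dntt cells in CPM on the vertical axis and a point for each mouse by genotype. Horizontal lines are group means. Dnmt3a replicate 1 is the highest point for Satb1 (193 CPM) and Notch1 (83.2 CPM) and the lowest for Mpo (299 CPM).

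How common these cells were was the first comparison between genotypes. They averaged 0.112% ± 0.0951 (SD, n = 3) of thinned cells for MxCre. The mean was 0.759% ± 1.14 (n = 4) for Dnmt3a, 0.908% ± 0.160 (n = 3) for the Tnfr1KO group and 0.333% ± 0.271 (n = 4) in the Tnfr2KO group. The mice of MxCre had 0.0168%, 0.111% and 0.207%, where the lowest rests on 1 cell (95% Wilson interval 0.00296% to 0.0950%). The Dnmt3a mice had 2.45%, 0.408%, 0.0732% and 0.104%, so that replicate 1 lay far above the others. The Tnfr1KO mice had 0.886%, 0.761% and 1.08%, and the Tnfr2KO mice 0.147%, 0.235%, 0.735% and 0.216%. All Tnfr2KO mice lay below all Tnfr1KO mice and all Tnfr1KO mice above all MxCre mice, while Dnmt3a spanned nearly the whole range. Without thinning, shares of all quality cells were 0.308% to 0.607% in MxCre, 0.211% to 3.63% in Dnmt3a, 1.60% to 2.46% in the Tnfr1KO group and 0.336% to 1.57% in the Tnfr2KO group, and again the Tnfr2KO mice lay below the Tnfr1KO mice. The groups overlapped at 3000 UMIs, where Tnfr2KO replicate 3 had 0.541% and Tnfr1KO replicate 1 0.357%, and with Flt3 and Dntt as the only rule genes, where Tnfr2KO replicate 3 had 0.928% and Tnfr1KO replicate 2 0.887%. Without thinning and with doublets left out they overlapped narrowly, at 1.64% in Tnfr2KO replicate 3 and 1.63% in Tnfr1KO replicate 1.

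No difference in share passed its test. The Tnfr2KO mean was 0.575 percentage points below the Tnfr1KO mean (exact two-sided permutation p 0.0571, adjusted 0.571 by Benjamini-Hochberg over 10 share tests). The smallest p that 3 against 4 mice can give is 0.0286. Dnmt3a against MxCre differed by 0.647 points (exact permutation p 0.600, adjusted 0.938), which fell to 0.0835 without Dnmt3a replicate 1. Tnfr1KO against Dnmt3a differed by 0.149 (exact permutation p 0.914, adjusted 1.00) and Tnfr2KO against Dnmt3a by -0.425 (exact permutation p 0.743, adjusted 0.938). Both changed sign when Dnmt3a mice were left out: to -0.0791 or -0.0689 without replicate 3 or 4 in the first, and to 0.138 without replicate 1 in the second. A lower share of these cells and less Dntt or Flt3 RNA per cell cannot be told apart by this measure.

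Dntt among Flt3-positive cells varied in the same way. Over thinned Flt3-positive cells without the other 5 genes, 0.606%, 3.30% and 5.14% held Dntt in MxCre, 32.6%, 5.67%, 1.79% and 4.71% in Dnmt3a, 18.9%, 15.2% and 17.03% in the Tnfr1KO group, and 3.79%, 3.81%, 18.03% and 4.14% in the Tnfr2KO group. Tnfr2KO replicate 3 lay within the Tnfr1KO range and the other 3 Tnfr2KO mice near MxCre. The Tnfr2KO mean of 7.44% ± 7.06 (SD, n = 4) and the Tnfr1KO mean of 17.04% ± 1.86 (SD, n = 3) differed by -9.60 points (exact permutation p 0.114, adjusted 0.571). The 3 other comparisons gave 8.18, 5.85 and -3.75 points (Dnmt3a against MxCre, Tnfr1KO against Dnmt3a, Tnfr2KO against Dnmt3a), with exact permutation p 0.543, 0.629 and 0.714 and adjusted p of 0.938 each. Without Dnmt3a replicate 1 they were 1.04, 12.99 and 3.39. The Il7r share of Flt3 Dntt cells gave the 2 other tests, in which a group had 1 mouse with enough cells: -0.0926 points for Tnfr1KO against Dnmt3a (exact permutation p 1.00) and -2.13 for Tnfr2KO against Tnfr1KO (exact permutation p 0.750), where the smallest possible p is 0.250. Without thinning, 4 Tnfr2KO and 3 Tnfr1KO mice could be compared, and the Il7r share differed by -3.66 points without overlap (exact permutation p 0.0286, the smallest possible, adjusted 0.343 over 12 tests). Depth differs between mice there, and at 10000 UMIs the groups overlapped, with 0% to 8.47% in Tnfr1KO and 0% to 4.17% in Tnfr2KO.

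**Figure D3:**
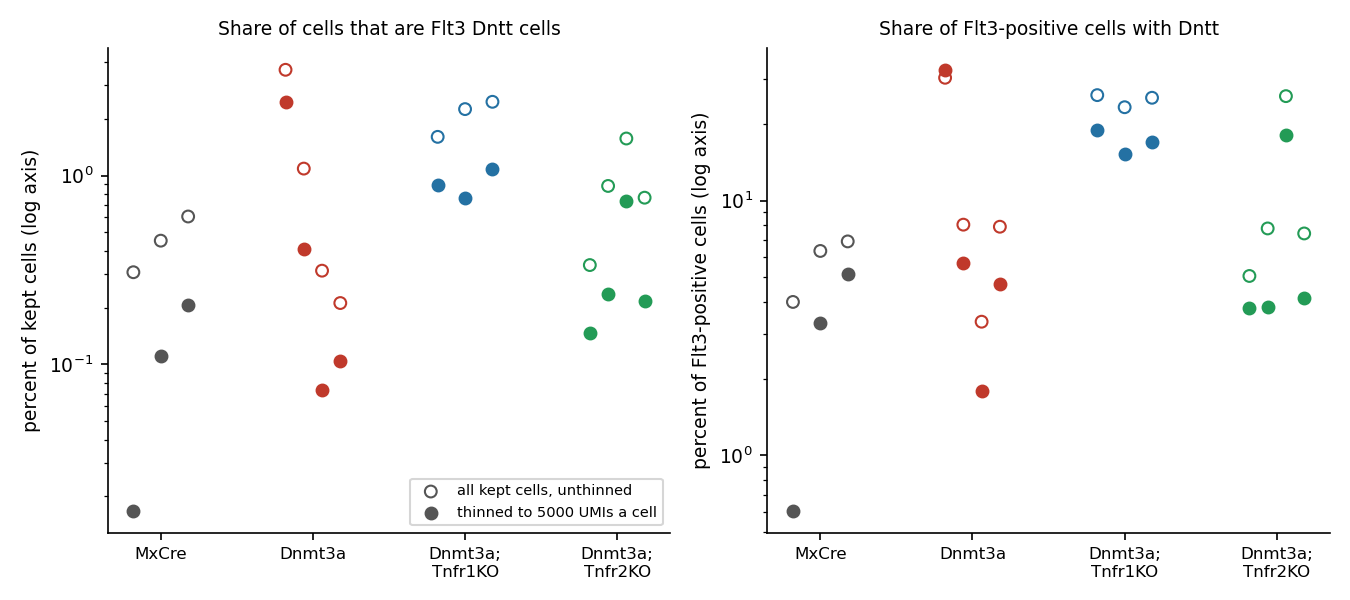
Left, Flt3 Dntt cells as a percent of cells, and right, the percent of Flt3-positive cells that held Dntt, for each mouse by genotype on log axes. Open points are unthinned cells and filled points cells thinned to 5000 UMIs. In the left panel the 4 filled Tnfr2KO points (0.147% to 0.735%) lie below the 3 Tnfr1KO points (0.761% to 1.08%), and the Dnmt3a points run from 0.0732% to 2.45%.

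Gene levels were then compared between genotypes with edgeR's quasi-likelihood test on UMIs summed per mouse, for mice with at least 20 Flt3 Dntt cells. That left 10 mice: MxCre replicate 3 alone, Dnmt3a replicates 1 and 2, and all Tnfr1KO and Tnfr2KO mice. The lone MxCre mouse was assumed to vary like the other groups. Each SE printed with a log2 fold change is its absolute value divided by the square root of the test's F statistic. It was worked back from the test and not estimated on its own. Over 9798 genes, with a gene called at an adjusted p below 0.05, the fit called 0% in Dnmt3a against MxCre, 0.857% in Tnfr1KO against Dnmt3a, 0.469% in Tnfr2KO against Dnmt3a and 0.112% in Tnfr2KO against Tnfr1KO.

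Tnfr2KO against Tnfr1KO is the comparison in which every mouse of both groups entered. In it 11 genes passed, 4 higher (0.0408% of those tested) and 7 lower (0.0714%) in Tnfr2KO. Of the 7 lower genes, 4 encode the MHC class II antigen presentation system: H2-Aa, H2-Ab1, H2-Eb1 and the invariant chain Cd74. Of the class II list, 6 genes were tested and 4 were called lower, none had a positive log2 fold change, and the median was -1.56, against 0.00 for all genes. Ighm and Cox6a2 also fell, while Zfp990, Zfp992, Krt18 and Lrmda rose and Pusl1 fell. Without Tnfr1KO replicate 3 or without any 1 of the Tnfr2KO mice, 4 to 6 genes passed.

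The class II levels were low and were uneven between Tnfr1KO mice. H2-Eb1 stood at 34.1, 15.4 and 20.0 CPM in the Tnfr1KO mice and at 0, 2.59, 2.09 and 3.69 CPM in the Tnfr2KO mice, which do not overlap. Its log2 fold change was -3.21 (SE 0.463, edgeR adjusted p 0.00328), and it passed without each mouse in turn. Cd74 stood at 92.5, 21.9 and 18.5 CPM against 2.65, 3.46, 7.67 and 4.61 CPM, also without overlap, with a log2 fold change of -3.12 (SE 0.555, edgeR adjusted p 0.0348). Tnfr1KO replicate 1 was the highest for all 4 genes, and there the highest cell for each gene held 93.6% of the Cd74 UMIs, 95.2% of H2-Eb1 and 84.3% of H2-Aa. In Tnfr1KO replicates 2 and 3 no cell held more than 20.0% of the UMIs of these 3 genes, and 25 and 19 cells held Cd74. With the highest cell for each gene set aside, replicate 1 had 5.95 CPM of Cd74, 1.62 CPM of H2-Eb1 and 9.20 CPM of H2-Aa. These values lay within the range of the Tnfr2KO mice with all their cells. With that cell set aside in every mouse, the highest Tnfr2KO values were 2.79 CPM of Cd74, 8.37 CPM of H2-Aa and 2.76 CPM of H2-Eb1. The groups then stayed apart for Cd74 and H2-Aa and overlapped for H2-Eb1. Without Tnfr1KO replicate 1 the Cd74 change was -1.97 and that of H2-Eb1 -2.81 (edgeR adjusted p 0.0246 and 0.0137), while H2-Aa and H2-Ab1 no longer passed (0.0930 and 0.207). Cd74 also failed without each Tnfr2KO mouse in turn (0.0604 to 0.126), and H2-Aa and H2-Ab1 passed only without Tnfr1KO replicate 2. Among members with at least 2 Dntt UMIs none of the 4 passed, H2-Eb1 at -1.68 (0.903).

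H2-Aa stood at 58.4, 17.3 and 33.3 CPM against 2.65, 4.32, 11.9 and 10.1 CPM, and its log2 fold change was -2.15 (SE 0.397, edgeR adjusted p 0.0365). H2-Ab1 was the most abundant of the 4, at 96.8, 65.8 and 86.6 CPM against 34.5, 41.5, 39.05 and 53.4 CPM, with a change of -0.98 (SE 0.187, edgeR adjusted p 0.0365). The groups did not overlap for either, and without its highest cell Tnfr1KO replicate 1 still had 60.04 CPM of H2-Ab1. Erythroid cells of the same mice held Cd74 at 46.9, 10.8 and 0.848 CPM in the Tnfr1KO group and at 22.4, 0.711, 0 and 0.505 CPM in the Tnfr2KO group. Among these 7 mice, Tnfr1KO replicate 1 had the most Cd74 in both cell sets, and the order of the others differed. The summed level of the mature B cell list (9 genes, which include class II genes) was 211 to 352 CPM in the Flt3 Dntt cells of the Tnfr1KO group and 135 to 171 CPM in the Tnfr2KO group. Its defining gene Ms4a1 was at 0 in 13 of 14 mice and in 1 cell of Tnfr1KO replicate 2. The parts of free RNA and of mature B cell RNA in the class II result were not tested.

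Ighm fell by 0.93 on the log2 scale (SE 0.180, edgeR adjusted p 0.0365), from 158, 131 and 208 CPM in the Tnfr1KO mice to 71.7, 81.3, 78.8 and 116 CPM in the Tnfr2KO mice, without overlap. It came from many cells: 74, 55 and 66 Tnfr1KO cells held it, and erythroid cells of these 7 mice had 3.60 to 8.67 CPM. It did not pass without Tnfr1KO replicate 3 (edgeR adjusted p 0.341) or replicate 1 (0.0597), nor without Tnfr2KO replicate 1, 2 or 3 (0.0990 to 0.140). Cox6a2, a gene also found in plasmacytoid dendritic cells, stood at 28.1, 17.7 and 26.1 CPM against 7.96, 10.4, 9.76 and 4.61 CPM. Its change was -1.54 (SE 0.298, edgeR adjusted p 0.0365), and erythroid cells held at most 1.51 CPM in any mouse. It passed only without Tnfr1KO replicate 2 when 1 mouse was left out, and not by DESeq2 (adjusted p 0.201). Satb1 (-0.37, edgeR adjusted p 0.922), Notch1 (-0.24, 1.00) and Il7r (-2.01, 1.00) did not pass.

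**Figure D4:**
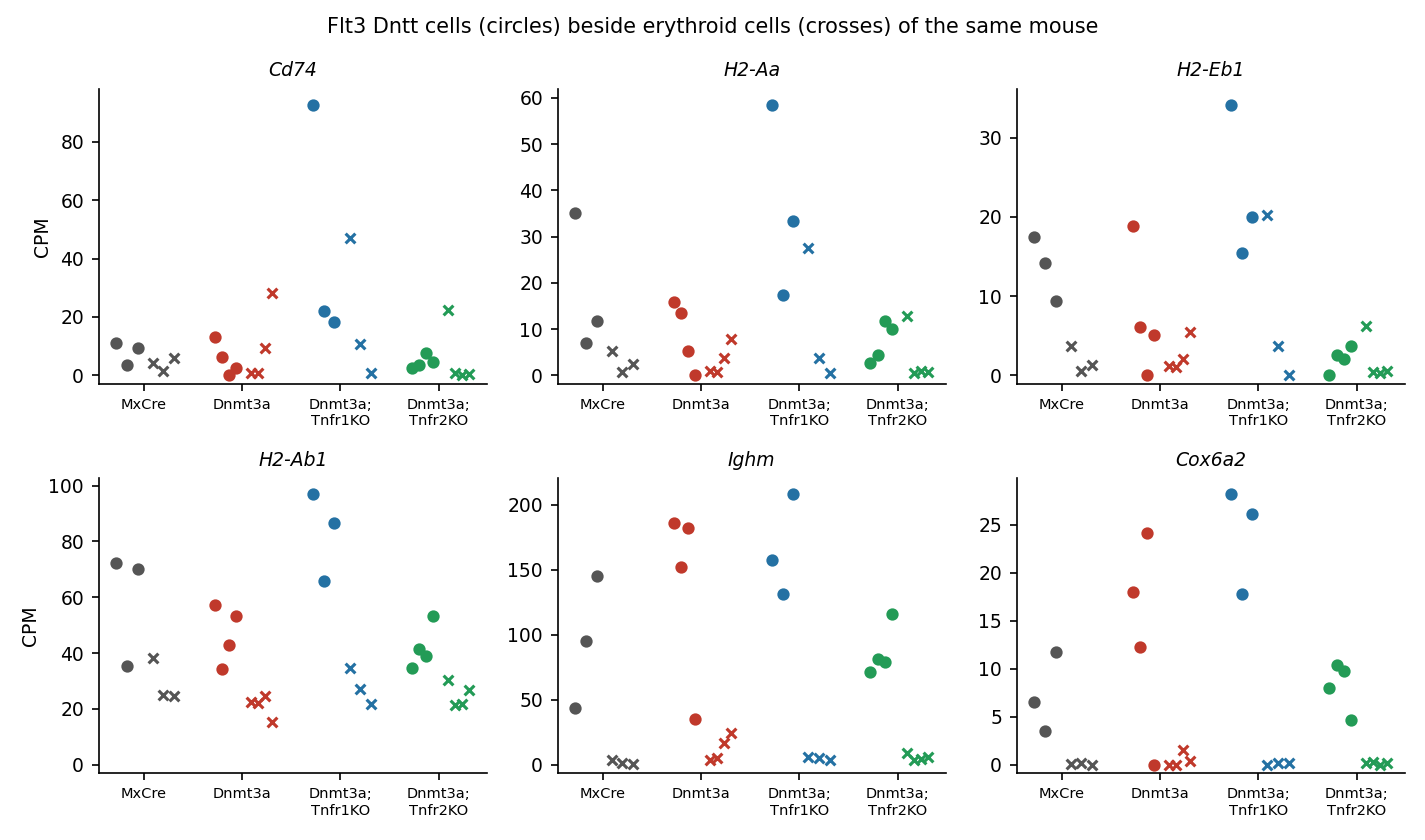
Levels of Cd74, H2-Aa, H2-Eb1, H2-Ab1, Ighm and Cox6a2 in CPM (vertical axes) for each mouse by genotype. Circles are Flt3 Dntt cells and crosses erythroid cells of the same mouse. In each panel the 3 Tnfr1KO circles lie above the 4 Tnfr2KO circles, and for Cd74 the Tnfr1KO replicate 1 circle is at 92.5 CPM with its cross at 46.9 CPM.

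Of the other called genes, Zfp990, Zfp992 and Pusl1 lie on chromosome 4, as Tnfrsf1b does. Zfp990, a zinc finger gene on chromosome 4 (145510759 to 145538251), lies 0.298 Mb from Tnfrsf1b (145212368 to 145246870). It stood at 18.6, 19.0, 41.1 and 42.4 CPM in the Tnfr2KO mice and at 0 in all Tnfr1KO and MxCre mice. Set against a floor of 3 UMIs over the whole Tnfr1KO group it was at least 60.0-fold higher (edgeR adjusted p 7.90e-06). Zfp992, another zinc finger gene 1.24 Mb away, rose by 1.999 (SE 0.378, edgeR adjusted p 0.0365) and Pusl1, a pseudouridine synthase gene 10.7 Mb away, changed by -2.77 (SE 0.407, edgeR adjusted p 0.00328). Pusl1 stood at 21.6, 21.0 and 19.5 CPM in the Tnfr1KO mice and 10.6, 3.46, 2.09 and 0.922 CPM in the Tnfr2KO mice. Zfp990 and Pusl1 passed without each mouse in turn, whereas Zfp992 passed only without Tnfr2KO replicate 4.

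Of the chromosome 4 genes, Zfp990 and Pusl1 were not particular to Flt3 Dntt cells in level. Erythroid cells of the Tnfr2KO mice held Zfp990 at 14.4 to 38.8 CPM and Pusl1 at 2.80 to 10.3 CPM, and Hlf-positive cells averaged 22.2 CPM ± 8.82 (SD, n = 4) and 5.12 CPM ± 1.54. Krt18, a keratin gene, rose by 1.38 (edgeR adjusted p 0.0365), from 20.6, 16.3 and 11.3 CPM to 21.2, 51.9, 40.4 and 47.0 CPM. Lrmda (chromosome 14, 22019504 to 23056093) rose by 2.22 (edgeR adjusted p 0.0365), and here the Tnfr1KO mice were the ones that stood apart from all other groups. They had 1.62, 2.33 and 3.59 CPM, whereas the other 11 mice had between 7.96 and 21.2 CPM. Lrmda did not pass without any 1 of the 7 mice (edgeR adjusted p 0.0550 to 0.171), and Krt18 passed only without Tnfr1KO replicate 1 or Tnfr2KO replicate 1.

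Against Dnmt3a the Tnfr1KO group had 84 called genes, 33 higher (0.337% of those tested) and 51 lower (0.521%). The Tnfr2KO group had 46, with 23 higher and 23 lower (0.235% each). DESeq2 called 12 of the 84 and 2 of the 46, having given 72 and 44 of them no adjusted p, and without its filter on mean counts 18 and 14. These counts rest on Dnmt3a replicate 1. Without it 1 gene passed in each comparison, not among those above, and without replicate 2 the counts were 1003 and 753. Leaving out Tnfr1KO replicate 1, 2 or 3 gave 24, 23 or 39, and leaving out Tnfr2KO replicate 1 or 2 gave 27 or 30. Both comparisons share the Dnmt3a mice, so genes called in both are not independent findings.

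Ckm encodes muscle creatine kinase (chromosome 7, 19411094 to 19421583). It stood at 8.76, 14.1 and 9.36 CPM in MxCre, 2.57, 6.15, 18.7 and 10.1 CPM in Dnmt3a, 133, 114 and 169 CPM in the Tnfr1KO group and 165, 135, 63.5 and 71.9 CPM in the Tnfr2KO group. All 7 receptor-knockout mice lay above all 7 others. Its log2 fold changes were 5.46 (SE 0.495, edgeR adjusted p 3.31e-06) and 5.01 (SE 0.501, 1.90e-05), and with all 14 mice in the fit 4.67 and 4.24 (5.83e-08 and 7.29e-07). Without Dnmt3a replicate 1, which leaves 1 Dnmt3a mouse, the changes were 4.53 and 4.07 and missed the threshold (0.0613 and 0.170). Hlf-positive cells showed it too, at 158 CPM ± 41.4 (SD, n = 3) and 125 CPM ± 43.2 (n = 4), against 5.36 CPM ± 1.73 in MxCre and 13.003 CPM ± 5.76 in Dnmt3a, and erythroid cells had 15.5 to 63.2 CPM in the knockout mice and at most 8.80 CPM elsewhere.

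Some histone genes were called against Dnmt3a, where replicate 1 was high. Hist2h2ac stood at 409.7 and 107 CPM in Dnmt3a replicates 1 and 2, at 10.3, 15.4 and 14.4 CPM in the Tnfr1KO mice and at 15.9, 5.19, 86.5 and 29.5 CPM in the Tnfr2KO mice. Its log2 fold changes against Dnmt3a were -4.07 and -2.58 (edgeR adjusted p 5.10e-04 and 0.0138). Of 45 histone genes tested, 7 were called lower and 2 higher in Tnfr1KO against Dnmt3a (all genes 0.521% and 0.337%), and 7 lower in Tnfr2KO against Dnmt3a (all genes 0.235%). Summed over 67 histone genes, Dnmt3a replicate 1 had 7759 CPM in its Flt3 Dntt cells and the other 13 mice 1470 to 4252 CPM. On this sum both receptor groups overlapped the other Dnmt3a mice: Tnfr1KO had 2792 to 3955 CPM and Tnfr2KO 1470 to 4252 CPM, against 1702 to 3228 CPM in Dnmt3a replicates 2 to 4. Erythroid cells of that mouse were high in Hist2h2ac as well, at 376 CPM, and its Flt3 Dntt cells held the most Mki67, a proliferation gene, at 653 CPM against 131 to 439 CPM elsewhere. The part of this library's quality in the histone result was not tested.

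The list genes called in Tnfr2KO against Dnmt3a were myeloid, erythroid and platelet genes. Ms4a3 rose by 2.47 (SE 0.475, edgeR adjusted p 0.0187), Hbb-bt, an adult beta globin gene, by 2.42 (0.00917) and Itga2b, the platelet integrin chain CD41, by 3.19 (0.0469). Itga2b stood at 1.29 and 2.46 CPM in Dnmt3a replicates 1 and 2 and at 21.2, 6.05, 11.2 and 20.3 CPM in Tnfr2KO. Dnmt3a replicates 3 and 4, outside the fit, had 5.35 and 15.2 CPM, and with all 14 mice neither Itga2b nor Ms4a3 passed (edgeR adjusted p 0.110 and 0.123). Of 20 myeloid priming genes 1 was called higher and 18 were positive (median 0.58, all genes 0.00), where 0.235% of all genes were called higher. Of 14 megakaryocyte and erythroid genes 2 were called higher and 12 were positive (median 0.76). Hbb-bt in erythroid cells ranged from 47.6 to 26250 CPM over the mice. The part of free RNA in the Hbb-bt and Ms4a3 changes was not tested.

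In Tnfr1KO against Dnmt3a, Hbb-bt rose by 1.93 and H2-Ab1 by 1.00 (edgeR adjusted p 0.0464 each). H2-Ab1 was the 1 gene called of 6 class II genes, where 0.337% of all genes were called higher. All 6 were positive (median 0.95, all genes -0.01). Without the highest cell for each gene, Tnfr1KO replicate 1 had 5.95 CPM of Cd74, 9.20 of H2-Aa and 1.62 of H2-Eb1. With all cells, Dnmt3a replicate 1 had 13.3, 15.9 and 18.9 CPM and replicate 2 had 6.15, 13.5 and 6.15 CPM. H2-Ab1 stayed at 60.04 CPM, against 57.1 and 34.4 CPM. The part of those cells in the 6 signs was not tested. Lrmda changed by -2.59 (SE 0.437, edgeR adjusted p 0.00636), as the levels above show, and Gstp1, a glutathione transferase gene, by 2.48 (0.0464). Zfp990 rose by 5.10 (SE 0.629, edgeR adjusted p 3.37e-04) in Tnfr2KO against Dnmt3a. Hoxb2, Hoxb3os, Gm49980 and Gm42047 were also called higher in both comparisons, but among the Dnmt3a mice they were low in replicates 1 and 2, which entered the fit, and higher in 3 and 4, which did not. Gm49980 stood at 0.429, 0, 32.1 and 63.4 CPM in the 4 Dnmt3a mice and at 36.2 to 54.3 CPM in Tnfr1KO. With all 14 mice in the fit, Gm49980 (edgeR adjusted p 0.120) and Hoxb3os (0.489) no longer passed in Tnfr1KO against Dnmt3a, nor did Hoxb2 (0.155) in Tnfr2KO against Dnmt3a.

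**Figure D5:**
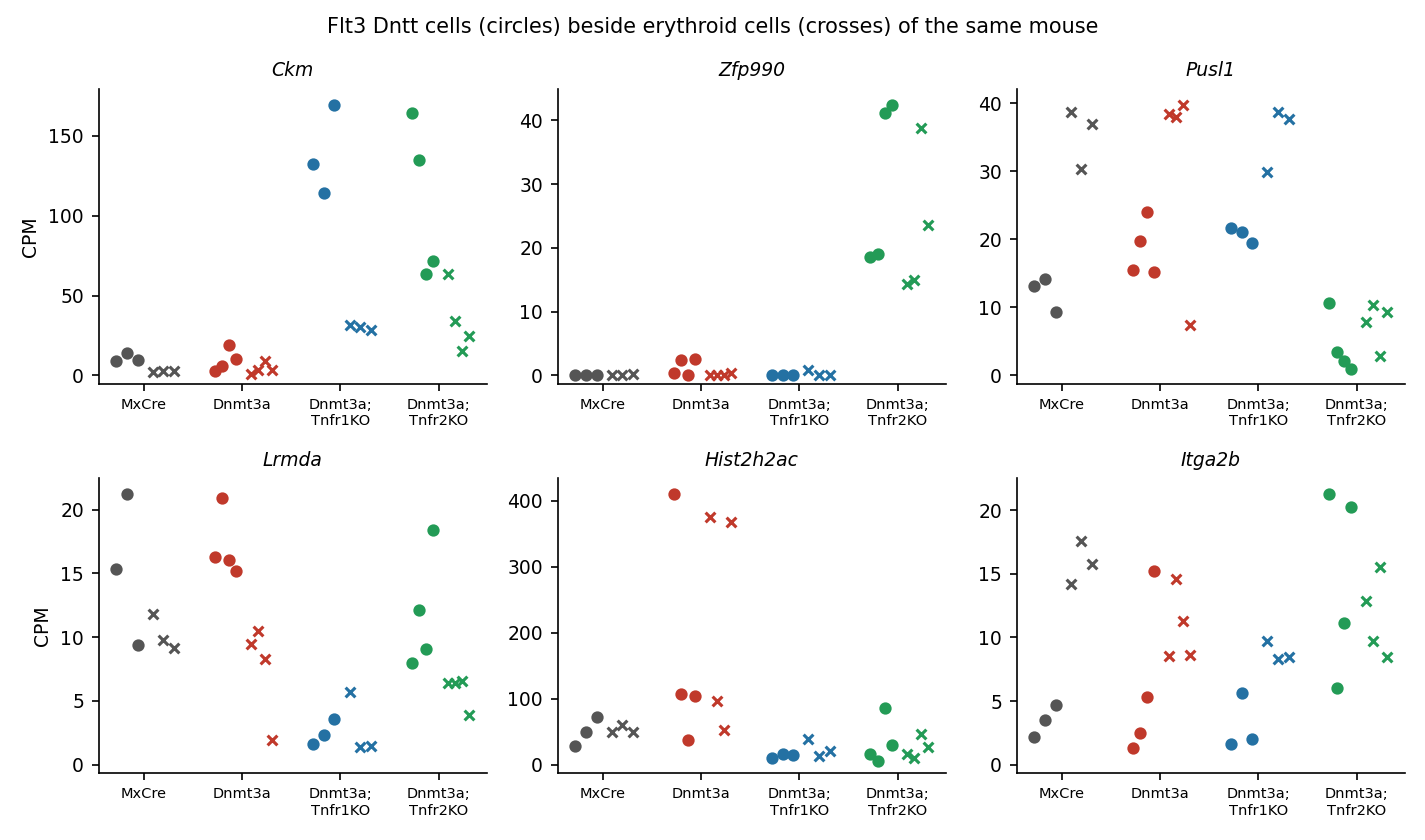
Levels of Ckm, Zfp990, Pusl1, Lrmda, Hist2h2ac and Itga2b in CPM (vertical axes) for each mouse by genotype, with circles for Flt3 Dntt cells and crosses for erythroid cells of the same mouse. Ckm lies at 63.5 CPM or more in the 7 knockout mice and at 18.7 CPM or less in the other 7, and Zfp990 is above 2.54 CPM only in the Tnfr2KO mice.

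Lymphoid regulators were read against the share called over all genes (0%, 0.857%, 0.469% and 0.112%), at which lists of this size could well hold no call. Of 20 lymphoid transcription factors tested, none was called in any of the 4 comparisons, nor was any of 15 lymphoid receptors or of 18 TNF receptor and NF-kB genes. Satb1 and Notch1 came nearest, in Tnfr2KO against Dnmt3a, at -0.72 (SE 0.170, edgeR adjusted p 0.0611) and -0.78 (SE 0.212, 0.0904). Satb1 passed when only mice with at least 50 of these cells entered (0.0249), where Dnmt3a is replicate 1 alone, and not without Dnmt3a replicate 1 (-0.59, 0.833), where it is replicate 2 alone. Over the 20 factors 6 were positive (median -0.22) in that comparison, 9 (median -0.03) in Tnfr1KO against Dnmt3a and 5 (median -0.13) in Tnfr2KO against Tnfr1KO. The 8 DNA methylation genes were all negative against Dnmt3a in both receptor groups (medians -0.38 and -0.35), with none called.

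The targeted genes gave few UMIs in so few cells. Tnfrsf1b stood at 0, 9.51, 4.18 and 9.22 CPM in the Tnfr2KO mice and 7.38 to 12.7 CPM in Dnmt3a (log2 fold change -0.42, edgeR adjusted p 0.678). Tnfrsf1a did not mark the libraries labelled Tnfr1KO: it stood at 31.9, 31.3 and 31.8 CPM there and 29.6 to 50.7 CPM in Dnmt3a (0.15, edgeR adjusted p 0.761). A 3' tag may lie outside the deleted part, so the direction of each Tnfr1KO result rests on the label. The Dnmt3a transcript stood at 40.6 to 61.5 CPM in Dnmt3a and 24.7 to 58.5 CPM in MxCre, so it did not mark the Dnmt3a label either. Tnf was at 0 to 16.1 CPM over the 14 mice.

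In Dnmt3a against MxCre, with 1 MxCre mouse in the fit, no gene passed by edgeR or DESeq2, while 709 had an unadjusted edgeR p below 0.05. Other fits called some: 19 genes with all 14 mice, 48 with no filter on low counts, 18 with the replicate number as a block and 7 from these groups alone. The genes of lowest p were Car1 (-4.73), Hoxb2 (-7.20), Car2 (-1.36), Gm26737 (-6.30) and Ccnd1 (1.69), each at an edgeR adjusted p of 0.292. With all 14 mice Hoxb2 stood at -1.63, Car2 at -0.74 and Ccnd1 at 0.70, and none of the 3 passed (edgeR adjusted p 0.212 to 0.565). Car1, an erythroid carbonic anhydrase gene, was at 194 CPM in the MxCre mouse of the fit, all from 1 cell. Cyclin gene Ccnd1 was at 28.1 CPM in that mouse, but at 92.0 and 42.4 CPM in the other MxCre mice, and at 63.4 to 144 CPM in Dnmt3a. Of 14 megakaryocyte and erythroid genes 1 was positive (median -1.54), and of 24 G2 and M phase genes 17 (median 0.50, all genes 0.02). Both list values rest on the lone MxCre mouse of the fit, with 28 Flt3 Dntt cells. The part of the cell with Car1 in the megakaryocyte and erythroid value was not tested.

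Whether a genotype difference was larger or smaller in Flt3 Dntt cells than in Hlf-positive cells of the same mice was tested as an interaction in edgeR, over 13717 genes. It called 0.933% in Dnmt3a against MxCre, 0.0219% in Tnfr1KO against Dnmt3a, 0.233% in Tnfr2KO against Dnmt3a and 0.131% in Tnfr2KO against Tnfr1KO, or 128, 3, 32 and 18 genes. By direction, Tnfr2KO against Dnmt3a had 0.124% higher and 0.109% lower, and Tnfr2KO against Tnfr1KO 0.0948% higher and 0.0365% lower. In the last, Itga2b (1.79, adjusted p 0.0223), Ms4a3 (1.03, 0.00420) and Cpa3, a mast cell protease gene (1.24, 0.0397), differed. Ms4a3 in Flt3 Dntt cells was 118 CPM ± 26.2 (SD, n = 4) in Tnfr2KO and 53.2 CPM ± 39.9 (n = 3) in Tnfr1KO, whereas Hlf-positive cells had 921 CPM ± 258 and 828.8 CPM ± 130. How much of this Ms4a3 was free RNA was not tested. Agtrap, a gene on chromosome 4, 2.87 Mb from Tnfrsf1b, also differed (interaction -1.01, edgeR adjusted p 0.00488). It averaged 19.6 CPM ± 8.21 (SD, n = 4) in Flt3 Dntt cells of Tnfr2KO and 38.98 CPM ± 5.48 (n = 3) in those of Tnfr1KO. Hlf-positive cells had 35.7 CPM ± 4.62 and 34.05 CPM ± 3.76. In the test on Flt3 Dntt cells alone, neither Agtrap, Itga2b, Ms4a3 nor Cpa3 passed in Tnfr2KO against Tnfr1KO. The edgeR adjusted p there was 0.246 for Agtrap, 0.256 for Itga2b and 0.519 for Ms4a3. Neither Ckm, Zfp990 nor Pusl1 differed between the cell sets by the interaction in any of the 3 comparisons between groups with the Dnmt3a label (edgeR adjusted p 0.935 to 1.00). By DESeq2 the 4 counts were 34, 0, 2 and 0. Leaving out 1 mouse gave 27 to 190, 11 to 27, 17 to 66 and 10 to 49, and with all 14 mice 1 gene passed in each of the last pair of comparisons. Satb1 was among the genes of the first comparison (interaction -1.11, SE 0.277, edgeR adjusted p 0.01995), in a fit with 1 MxCre mouse and 2 Dnmt3a mice. The first count rests on the lone MxCre mouse and was 27 without Dnmt3a replicate 1 and 190 without replicate 2. The lowest counts of the last pair came without Dnmt3a replicate 1 (17) and Tnfr2KO replicate 1 (10), and the highest without Tnfr2KO replicate 2 (66) and Tnfr1KO replicate 2 (49).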

How the data were processed

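The 14 count matrices hold whole-number UMI counts per gene and barcode, deposited by the authors without normalization. Reads were converted with bcl2fastq 2.20.0.422 and counted with Cell Ranger 6.0.0, with mm10/GRCm38 as the build, per the submitters' processing notes. Totals were 62416022 to 162869740 UMIs per library. Groups came from the genotype labels.

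Cells with at least 1000 UMIs, 500 genes and under 10% mitochondrial UMIs were kept. The number of doublets per library was set in advance, at 0.8% of cells per 1000 kept cells. The cells of highest doublet score were marked up to that number (3143 cells) and stayed in. The members and gene lists were chosen with earlier results of these data known. Shares were compared by exact two-sided permutation over mice, in cells thinned to 5000 UMIs, and 10 of 12 planned tests had enough mice. Intervals cover counting error only. Counts summed per mouse were tested with edgeR 4.0.16 (quasi-likelihood, TMM scaling, Benjamini-Hochberg adjustment over all genes) in R 4.3.3, for mice with at least 20 members, and DESeq2 1.42.0 was an alternative. On simulated data for Tnfr1KO against Dnmt3a (9798 genes), 57% of 2-fold and 98% of 4-fold changes were recovered, with 7 false calls. The simulation gave all genes and mice 1 spread and changed only genes with a mean above 10 UMIs. Its rates therefore do not cover genes of lower counts or a mouse that stands apart, such as Dnmt3a replicate 1. Genes named were the rule genes, the markers and targeted genes, a fixed set of lineage genes, list members that passed (up to 12 by size), up to 10 other called genes at 10 CPM or more without overlap, and, where under 5 passed, the 5 of lowest p. From these, the text gives those the results turn on. Gene positions are from RefSeq, GRCm38.p6, where 56 of 61 genes matched.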

Additional observations from a re-analysis of the deposited data

Results flagged for a closer look

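Dixon's test was applied to 105 groups of 4 mice and marked 14 values as far from the rest. Chance marks about 1 in 20 where values are normally spread. Many of these values are sparse CPM, and a lone value above 0 is always marked, so the 14 cannot be read against that rate. Dnmt3a replicate 1 had 2.45% Flt3 Dntt cells after thinning (other Dnmt3a mice 0.0732% to 0.408%) and Dntt in 32.6% of its Flt3-positive cells (others 1.79% to 5.67%). Tnfr2KO replicate 3 had 0.735% (others 0.147% to 0.235%) and 18.03% (others 3.79% to 4.14%), or 25.7% without thinning (others 5.06% to 7.77%). In Flt3 Dntt cells of Dnmt3a replicate 1, Emp1 stood at 24.5 CPM (others 0 to 3.69) and the histone gene Hist1h2an at 109 CPM (others 10.1 to 12.3). In Dnmt3a replicate 4, Hbb-bs stood at 228 CPM (others 11.1 to 26.8), Gm26737 at 2.54 CPM and Retnlg at 5.07 CPM. Ccl5 stood at 76.3 CPM in Dnmt3a replicate 2, nearly all from 1 cell, and at 3.49 CPM in Tnfr2KO replicate 3, which also had Gm26737 at 1.39 CPM. Retnlg stood at 71.9 CPM in Tnfr2KO replicate 4, all from 1 cell.

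Genotype changes that differed between Flt3 Dntt cells and Hlf-positive cells of the same mice by the interaction in edgeR are given as log2 values. Of the 128, 3, 32 and 18 genes called (Dnmt3a against MxCre, Tnfr1KO and Tnfr2KO against Dnmt3a, Tnfr2KO against Tnfr1KO), these are up to 5 per comparison, those of largest change with a group mean of at least 10 CPM, leaving out Hlf and the genes of the rule. In Tnfr2KO against Dnmt3a these were Itga2b at 3.30, Cpa3 at 3.23, Fcgr3 at 2.41, Icam4 at 2.31 and Ccl5 at -7.77. In Tnfr2KO against Tnfr1KO these were Retnlg at 4.09, Itga2b at 1.79, Cpa3 at 1.24, Ms4a3 at 1.03 and Agtrap at -1.01. In Tnfr1KO against Dnmt3a these were Ccl5 at -7.96 and Hbb-bs at -2.25. Every comparison that lists Ccl5 involves the Dnmt3a mice. Among them replicate 2 stood at 76.3 CPM of Ccl5, nearly all from 1 cell, and the others at 0 to 0.429 CPM. The part of free RNA in the Hbb-bs value was not tested. In Dnmt3a against MxCre the fitted values were 13.55 for Ccl5, 12.27 for Emp1, 11.73 for Epb41l3, 11.64 for Mllt3 and 11.04 for Trappc9, whose size depends on the prior count because the lone MxCre mouse had 0 UMIs. With all 14 mice in the fit they were 6.16, 2.69, 2.53, 1.95 and 1.85, and none passed (edgeR adjusted p 0.111 to 0.409).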

How the results depend on the processing

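Counts of called genes in Flt3 Dntt cells are given in the order Dnmt3a against MxCre, Tnfr1KO and then Tnfr2KO against Dnmt3a, and Tnfr2KO against Tnfr1KO. With no filter on low counts they were 48, 367, 362 and 96, and with the replicate block 18, 174, 93 and 23. Same-numbered mice correlated at -0.0675 to 0.0543 over 7 pairs. With 2 Dnmt3a mice in the fit, their deviations from the group mean mirror each other. Whether the numbers pair the mice cannot be told from so few pairs. Fits of only the groups compared gave 7 in the first and 4 in the last, and mice with at least 50 members 1053 and 649 against Dnmt3a, which is then replicate 1 alone. Members with at least 2 Dntt UMIs gave 933, 486 and 4 in the last 3, where Dnmt3a is again replicate 1 alone and Tnfr2KO replicate 1 is also below 20 cells. Leaving out 1 mouse gave 0, 1 to 1003, 1 to 753 and 4 to 13. For differences from Hlf-positive cells, DESeq2 gave 34, 0, 2 and 0, the RLE scaling 5 in the second, no filter 30, 60 and 43 in the last 3, and leaving out doublets 9 in the second and 37 in the last. Leaving out 1 mouse gave 27 to 190, 11 to 27, 17 to 66 and 10 to 49. Retnlg ranged from -0.45 without Tnfr2KO replicate 4 to 5.87 without replicate 3.

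Some alternatives were chosen after seeing the data. All 14 mice in the fit gave 19 genes in Dnmt3a against MxCre, and 60, 1 and 1 differences from Hlf-positive cells in all but Tnfr1KO against Dnmt3a. DESeq2 without its filter on mean counts gave 24 and 15 against Dnmt3a, and 20, 0, 2 and 0 differences.

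Shares (percentage points) that changed sign were, for members in Tnfr2KO against Dnmt3a, 0.138 without Dnmt3a replicate 1 and 0.0926 without replicates 1 and 4. In Tnfr1KO against Dnmt3a they were -0.0791 and -0.0689 without Dnmt3a replicate 3 or 4. Dntt among Flt3-positive cells in Tnfr2KO against Dnmt3a turned to 0.722 at 3000 UMIs, 3.39 without Dnmt3a replicate 1 and 3.71 without replicates 1 and 4. Il7r among members in Tnfr1KO against Dnmt3a turned from -0.0926 to 1.57 unthinned, 0.652 at 3000 UMIs and 0.972 without Tnfr1KO replicate 3. It has no stable sign: at 10000 UMIs the means were 4.68% and 2.50%, and with Flt3 and Dntt as the only rule genes 3.91% and 1.96%. The causes were not tested. Leaving out 1 mouse, the member share ran from -0.0791 to 0.713 in Tnfr1KO against Dnmt3a, -0.654 to 0.138 in Tnfr2KO against Dnmt3a and -0.709 to -0.490 in Tnfr2KO against Tnfr1KO. The Dntt share in Tnfr2KO against Dnmt3a ran from -7.28 to 3.39, and the Il7r share in Tnfr1KO against Dnmt3a from -1.11 to 0.972.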
